A study of Mus musculus with 9 samples.

Results

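Oxidative phosphorylation is carried out by 5 protein complexes of the inner mitochondrial membrane. Complexes I and II pass electrons from NADH and succinate to ubiquinone, complex III passes them on to cytochrome c, complex IV passes them to oxygen, and complex V, the ATP synthase, makes ATP from the resulting proton gradient. Most subunits are encoded in the nucleus and a small set in mitochondrial DNA. In the retina, photoreceptors hold dense packs of mitochondria in their inner segments, and many dividing cells make much of their ATP by glycolysis.

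The members were all genes whose array symbol begins with Nduf, Sdha to Sdhd, Uqcr, Cox4 to Cox8 or Atp5. Transcript clusters with several symbols and pseudogene names were left out, and a gene was read at its brightest probe set. This gave 77 of the 24261 genes tested. Of these, 60 encode structural subunits in common use: 26 of complex I, 3 of complex II, 8 of complex III, 10 of complex IV and 13 of complex V. The other members were 6 assembly factors, 8 tissue-restricted or alternative isoforms and 3 further genes. Of these 3, Ndufb4b and Atp5l2 are copies of subunit genes, and RefSeq lists Atp5l2 as a pseudogene although its name does not say so. Atp5sl shares only the prefix of complex V. It is now named Dmac2, an assembly factor of complex I, and was not counted among the 6. Ndufa4, once assigned to complex I, was counted in complex IV. A further 25 protein-coding genes with these prefixes were not analysed here, 18 of them on chromosomes 1, 2 and 3, among them Sdhc, Cox5b and Atp5c1. The gap is not particular to the members: of all genes tested only 15, 17 and 10 lay on these chromosomes, so the counts over all genes given below nearly leave them out.

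Whole retinas of postnatal day 8 mice of the strain C57Bl/6x129SvJ had been hybridised to Affymetrix arrays. Wild-type retinas (WT), retinas labelled Rb KO and retinas labelled Rb/p107 DKO (DKO below) gave 3 arrays each, and the series calls arrays of a group biological replicates. Rb and p107 are pocket proteins that restrain E2F factors and entry into the cell cycle. The labels name no Cre line or promoter, so how many retinal cells carried the deletions is not given in the sources used here. Values are log2 intensities, so a difference of 1 is a factor of 2, and levels of different genes are not set against each other because each probe set has its own brightness.

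At its brightest probe set Rb1 read 10.22 in WT on average, 9.91 in Rb KO (log2 fold change -0.31, limma adjusted p = 0.0793) and 9.86 in DKO (-0.36, adjusted p = 0.0423). Of 2 dimmer Rb1 probe sets, fitted among all probe sets, 1 (mean level 5.34, below the background) read higher in Rb KO by 2.01 (limma adjusted p = 0.00035) and in DKO by 2.23 (adjusted p = 0.000128), and the other (mean level 7.26) differed by 0.32 and 0.35 (adjusted p = 0.226 and 0.165). Rb1 thus did not settle the labels: the place of these probes relative to the deleted part is not given, and Rbl1, the gene of p107, was not analysed here. The 95th percentile of the negative controls, used below as the background, lay between 7.94 and 8.50. DKO replicate 2 stood apart: Xist read 5.47 there against 11.44 to 12.15 in the other 8 arrays, and 7 lens genes averaged 9.31 there against 6.74 to 7.72 in the others. How well positive controls separated from negative controls on an array, as an area under the ROC curve, was 0.944, 0.954 and 0.932 for WT, 0.928, 0.935 and 0.935 for Rb KO, and 0.929, 0.927 and 0.936 for DKO.

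Many subunit genes were lower in both mutants than in WT. In Rb KO 30 of the 77 members fell and 2 rose at a limma adjusted p under 0.05, which is 39.0% falling, while 14.3% of all genes tested fell and 10.2% rose. In DKO 35 members fell and 3 rose, which is 45.5% falling, against 17.1% of all genes that fell and 12.2% that rose. The shifts were small: the median log2 fold change of the members was -0.21 in Rb KO and -0.23 in DKO, and that of all genes was -0.05 and -0.06. Differences were below 0 for 66 members in Rb KO and 67 in DKO. Both comparisons use the same WT arrays. The members that fell in both numbered 26, with 4 more in the Rb KO comparison, 9 more in the DKO comparison, and 2 that rose in both.

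In 35 members every Rb KO array lay below every WT array, as it did for 21.5% of all genes. In 44 members every DKO array did, as for 26.5% of all genes. Of the members, 49 lay above the background in all 9 arrays, of which 21 fell in Rb KO and 22 in DKO, with a median of -0.23 in each. Among the 5843 genes above the background in all 9 arrays, 20.7% fell in Rb KO and 23.3% in DKO. For 6 of the falls in Rb KO and 10 in DKO the mutant group had no array above the background, so that a bound on the change, or no fold at all, is given. A further fall in DKO, that of Cox8b, had no array above the background in either group.

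Promoter letters of the members are shown here because subunit genes of all 5 complexes are known to share regulators. NRF1, the ETS factor GABPA (also called NRF2), the estrogen-related receptors (ERR) and YY1 bind promoters of many of them, and E2F factors are the partners of Rb. RefSeq promoter windows of GRCm38.p6, 250 bases before to 50 bases after a start, were held for 63 members in 68 windows. Letters were searched on both strands. The NRF1 letters GCGCATGC, whose matches on opposite strands can overlap, occurred in 8 of the 68 windows (11.8%), against 2.71% of all 32851 windows of the table. The YY1 letters AAGATGGC occurred in 10 (14.7%, against 2.75%), the GABPA letters CCGGAAGT in 4 (5.88%, against 3.89%), the ERR letters TGACCTTG in 3 (4.41%, against 1.56%) and the E2F letters TTCCCGC or TTGGCGC in 8 (11.8%, against 6.81%). All windows include those of noncoding genes, and base composition was not matched.

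The 60 bases before the start of 5 members follow, 5′ to 3′ on the gene's strand. Capitals mark only the letters of the motif named here for each gene. The Atp5g2 stretch also holds the E2F letters TTCCCGC, which are left in lower case. Sdhb at chr4:140961211-140961270 on the plus strand, Atp5k at chr5:108434400-108434459 on the minus strand and Atp5g2 at chr15:102671048-102671107 on the minus strand hold NRF1 letters. Uqcrh at chr4:116075071-116075130 on the minus strand holds GABPA letters, and Atp5l at chr9:44920743-44920802 on the minus strand holds ERR letters.
Sdhb: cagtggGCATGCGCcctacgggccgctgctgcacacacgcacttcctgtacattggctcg
Atp5k: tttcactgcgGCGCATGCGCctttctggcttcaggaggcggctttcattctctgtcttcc
Atp5g2: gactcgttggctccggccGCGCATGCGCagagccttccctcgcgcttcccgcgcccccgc
Uqcrh: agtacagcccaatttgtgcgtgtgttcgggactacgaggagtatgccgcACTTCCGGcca
Atp5l: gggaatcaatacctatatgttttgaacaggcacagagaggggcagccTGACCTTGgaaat
Matches stood in members that fell and in members that did not. NRF1 letters were in 2 of the 22 windows of members that fell in both mutants and in 4 of the 32 windows of members called in neither. YY1 letters were in 4 and 6 of these windows, and E2F letters in 1 and 6.

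The level of each complex was summarised per array as the mean, over its structural subunits, of the log2 intensity minus the WT mean of the same gene. Over all 60 structural subunits this was 0.031, 0.11 and -0.14 in the WT arrays, -0.196, -0.317 and -0.182 in those of Rb KO, and -0.273, -0.285 and -0.205 in DKO. All 6 mutant arrays lay below all 3 WT arrays. WT replicate 3 lay nearest to the mutants, with 58 of the 60 subunits below their WT mean.

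**Figure D1:**
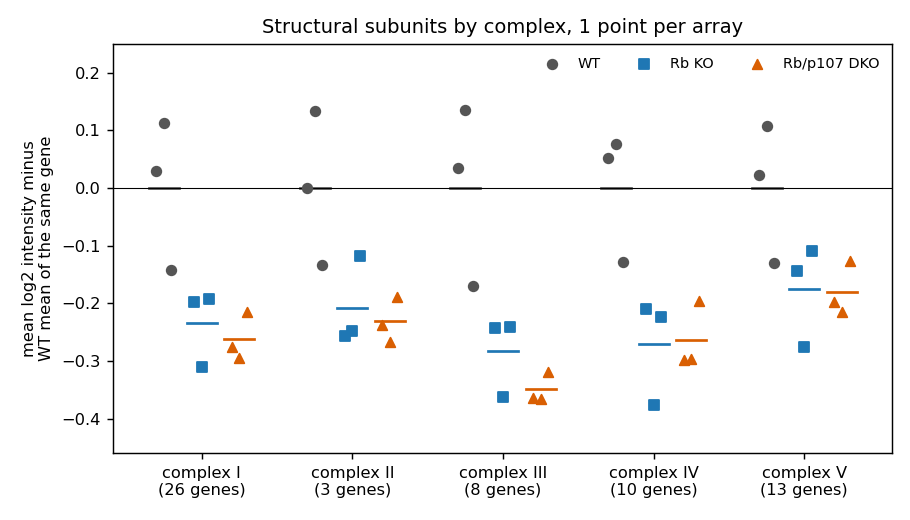
Mean log2 intensity of the structural subunits of each complex minus the WT mean of the same gene (vertical axis), for the 5 complexes (horizontal axis); each point is 1 array and each bar a group mean. In complexes I, III and IV all mutant points lie below all WT points, while in complex V they overlap WT replicate 3 (-0.13).

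By group mean, complex III lay lowest (-0.282 in Rb KO and -0.349 in DKO) and complex V highest (-0.176 and -0.18). Single Rb KO arrays departed from this order: complex II (-0.256) lay below complex III in replicate 1, and in replicate 2 complex IV (-0.376) lay below complex III and complex II (-0.248) above complex V. The complex III mean was -0.243, -0.362 and -0.24 in those of Rb KO, and -0.364, -0.365 and -0.318 in DKO. The complex V mean was -0.143, -0.275 and -0.109 in those of Rb KO, and -0.197, -0.215 and -0.127 in DKO, and WT replicate 3, at -0.13, lay within these ranges. Taken within each array, complex III minus complex V was 0.013, 0.027 and -0.04 in the WT arrays, -0.1, -0.087 and -0.131 in those of Rb KO, and -0.167, -0.15 and -0.191 in DKO, so neither mutant overlapped WT. Of the 10 pairs of complexes, 4 did not overlap WT in Rb KO and 8 did not in DKO. The pairs are built from the same complex means, so they are not separate results. Complexes III and V, the pair shown, are the lowest and highest by group mean in these same data. All pair values are differences of means over genes on 3 arrays a group and carry no test.

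Complex I, the NADH dehydrogenase, had 10 of 26 structural subunits falling in Rb KO and 12 in DKO, with medians of -0.22 and -0.23, and none rose. By module, a division made with the values known, 3 of 7 subunits of the NADH-oxidizing tip fell in each mutant. In the quinone-reducing part 1 and 3 of 6 fell, and in the membrane arm 6 and 6 of 12. The quinone-reducing share in Rb KO, 16.7%, lay near the 14.3% of all genes, and counts this small do not tell the modules apart. Ndufb11, an X-linked accessory subunit of the membrane arm, read 9.17, 9.31 and 8.89 in the WT arrays, 8.64, 8.49 and 8.70 in those of Rb KO, and 8.47, 8.59 and 8.61 in DKO. No mutant array reached the lowest WT array. Its log2 fold change was -0.51 in Rb KO (SE 0.107, n = 3 arrays a group, limma adjusted p = 0.00552) and -0.57 in DKO (adjusted p = 0.00243).

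Ndufs5, an accessory subunit on the intermembrane-space side, read 8.83, 8.90 and 8.66 in the WT arrays, 8.39, 8.37 and 8.50 in those of Rb KO, and 8.35, 8.31 and 8.39 in DKO, above the background in 2 Rb KO arrays and 1 DKO array. It fell by 0.38 (SE 0.081, limma adjusted p = 0.00655) and by 0.45 (adjusted p = 0.00194) on the log2 scale, without overlap. Ndufb2, of the distal membrane arm, read 8.38, 8.50 and 8.33 in the WT arrays, above the background in 2 of 3 arrays, and 7.71 to 7.87 in the 6 mutant arrays, none above it. WT was at least 1.01-fold higher than Rb KO (group means 8.41 and 7.80, limma adjusted p = 0.000271) and at least 1.02-fold higher than DKO (mean 7.78, adjusted p = 0.000154). Ndufb8, from the same part of the arm, was at least 1.13-fold and 1.14-fold higher in WT (adjusted p = 0.0327 and 0.01).

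Outside the membrane arm, Ndufv1, the core flavoprotein that binds NADH, had a log2 fold change of -0.37 and -0.36 (SE 0.09 each, limma adjusted p = 0.0133 and 0.0115). Ndufa9, an accessory subunit of the quinone-reducing part, fell by 0.45 and 0.46. Ndufs8, a core iron-sulfur subunit of that part, differed by -0.32 in Rb KO (adjusted p = 0.0516) and fell by 0.45 in DKO (adjusted p = 0.00803). Ndufb8, Ndufv1, Ndufa9 and Ndufs8 were singled out after their values were seen, as were Uqcrc2 and Cox7c below. Ndufab1, the acyl carrier protein that also serves mitochondrial fatty acid synthesis, was not above the background in any array and read 7.81 in WT, 7.83 in Rb KO and 7.75 in DKO on average.

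**Figure D2:**
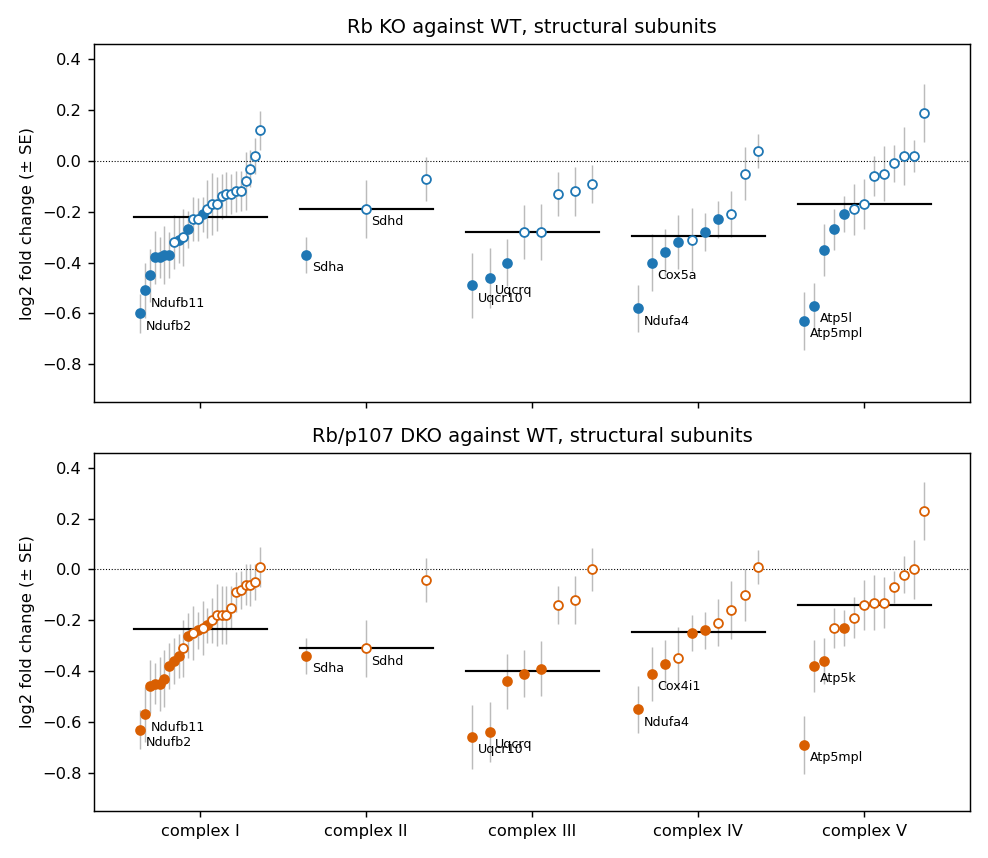
Log2 fold change against WT (vertical axis, bars ± SE) of each structural subunit, ordered within its complex (horizontal axis), for Rb KO above and DKO below; filled points passed the limma adjusted p under 0.05, open points did not, and black lines are medians. No filled point lies above 0, and the lowest points of complex V are Atp5mpl (-0.63 and -0.69); subunits not above background, such as Ndufb2 and Uqcr10, are drawn at the difference of their readings.

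Complex II, succinate dehydrogenase, is also an enzyme of the tricarboxylic acid cycle and is encoded by the nucleus alone. Of its 3 measured subunits 1 fell in each mutant, with medians of -0.19 and -0.31. Sdha, the flavoprotein that oxidizes succinate, read 10.31, 10.29 and 10.22 in the WT arrays, 9.82, 9.92 and 9.98 in those of Rb KO, and 9.90, 9.94 and 9.95 in DKO. The mutants lay apart from WT, and Sdha fell by 0.37 (SE 0.071, limma adjusted p = 0.00353) in Rb KO and by 0.34 (adjusted p = 0.00403) in DKO. Sdhb, the iron-sulfur subunit, read 9.38, 9.59 and 9.28 in the WT arrays, 9.39, 9.29 and 9.36 in those of Rb KO, and 9.41, 9.31 and 9.42 in DKO. Its groups overlapped, and the differences were -0.07 (95% interval -0.26 to 0.12, adjusted p = 0.624) and -0.04 (-0.23 to 0.15, adjusted p = 0.784). Sdhd, a membrane anchor, differed by -0.19 (adjusted p = 0.281) and -0.31 (adjusted p = 0.0629).

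In complex III, the cytochrome bc1 complex, 3 of 8 subunits fell in Rb KO and 5 in DKO, with medians of -0.28 and -0.40. The 5 small supernumerary subunits, a part also set apart with the values known, held 3 of the falls in Rb KO and 4 in DKO. In 1 and 2 of these falls no mutant array was above the background. Of all genes 14.3% and 17.1% fell, and counts this small do not tell the parts of the complex apart. Uqcrq read 9.33, 9.52 and 9.09 in the WT arrays, 9.03, 8.65 and 8.87 in those of Rb KO, and 8.67, 8.63 and 8.73 in DKO. The DKO arrays lay close together and all below WT. Uqcrq fell by 0.46 in Rb KO (SE 0.119, limma adjusted p = 0.0163) and by 0.64 in DKO (adjusted p = 0.00229). The Rb KO call was lost without Rb KO replicate 2 (adjusted p = 0.0701).

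Uqcrh, the hinge protein that helps cytochrome c dock, read 9.81, 9.88 and 9.54 in WT and 9.30 to 9.41 in the 6 mutant arrays. It fell by 0.40 (SE 0.092, limma adjusted p = 0.00936) and by 0.41 (adjusted p = 0.00705), without overlap. Uqcr10 read 8.36, 8.53 and 8.05 in WT and 7.55 to 7.97 in the mutants, where no array was above the background; the test called it lower in both (adjusted p = 0.0168 and 0.00276), and no fold can be given. The Rb KO call for Uqcr10 did not pass once either WT replicate 1 (adjusted p = 0.0542) or replicate 2 of Rb KO (adjusted p = 0.0732) was left out. Of the core subunits, Uqcrc1 had a log2 fold change of -0.28 in Rb KO (adjusted p = 0.0844) and fell by 0.44 in DKO (adjusted p = 0.0114), while Uqcrc2 had -0.13 (adjusted p = 0.329) and 0.00 (95% interval -0.19 to 0.19).

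In complex IV, cytochrome c oxidase, 6 of 10 subunits fell in Rb KO and 5 in DKO, with medians of -0.29 and -0.25. Ndufa4 read 11.77, 11.78 and 11.60 in the WT arrays, 11.10, 11.01 and 11.28 in those of Rb KO, and 11.07, 11.14 and 11.27 in DKO. The lowest WT array lay above the highest mutant array. Ndufa4 fell by 0.58 in Rb KO (SE 0.093, limma adjusted p = 0.00109) and by 0.55 in DKO (adjusted p = 0.00117), which is 33.3% and 31.9% lower.

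Cox7b, an X-linked subunit, read 9.84, 9.65 and 9.81 in the WT arrays, 9.45, 9.48 and 9.54 in those of Rb KO, and 9.53, 9.53 and 9.51 in DKO. It fell by 0.28 (SE 0.074, limma adjusted p = 0.0193) and by 0.24 (adjusted p = 0.0298), without overlap. The Rb KO call was lost when WT replicate 1 or 3, or either of replicates 1 and 2 of Rb KO, was left out (adjusted p up to 0.0725), and the DKO call when WT replicate 1 or 3, or any DKO array, was left out (adjusted p up to 0.103). Cox4i1, the common form of the largest nuclear-encoded subunit, read 8.46, 8.51 and 8.14 in WT and 7.86 to 8.13 in the mutants, none above the background. Its Rb KO call (adjusted p = 0.0463) was lost in 8 of the 9 fits that leave out an array, all except that without WT replicate 3, with adjusted p up to 0.159. Its DKO call (adjusted p = 0.0132) was lost when WT replicate 1 or DKO replicate 2 was left out, with adjusted p up to 0.0535. At the other end Cox7c differed by 0.04 (95% interval -0.11 to 0.19) in Rb KO and 0.01 (-0.14 to 0.15) in DKO.

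In complex V 5 of 13 subunits fell in Rb KO and 4 in DKO, with medians of -0.17 and -0.14. By part, a division made with the values known, 3 of 5 membrane and dimer-contact subunits fell in each mutant. These include Atp5l and Atp5k, whose limits are given below. Of the catalytic head and central stalk 2 and 1 of 3 fell, and of the 3 peripheral stalk and the 2 ring subunits none. Of all genes 14.3% and 17.1% fell, and counts over parts this small do not tell the parts apart. Atp5mpl, a small membrane subunit, read 11.63, 11.66 and 11.38 in the WT arrays, 10.74, 10.87 and 11.16 in those of Rb KO, and 10.78, 10.88 and 10.94 in DKO. All mutant arrays lay below WT, and Atp5mpl fell by 0.63 (SE 0.114, limma adjusted p = 0.00236) and by 0.69 (adjusted p = 0.00107), which is 35.5% and 38.0% lower.

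Atp5l, subunit g at the dimer contact, read 10.71, 10.73 and 10.58 in the WT arrays, 9.99, 10.05 and 10.27 in those of Rb KO, and 10.28, 10.26 and 10.40 in DKO. It fell by 0.57 (SE 0.09, limma adjusted p = 0.00109) and by 0.36 (adjusted p = 0.0121), and the DKO call was lost without DKO replicate 1 (adjusted p = 0.0503). This probe set lies on chromosome 5, whereas the gene lies on chromosome 9. In a fit of all probe sets, the brighter of 2 probe sets on chromosome 9 differed by -0.38 (adjusted p = 0.026) and -0.21 (adjusted p = 0.157), and the dimmer by -0.24 (adjusted p = 0.154) and -0.36 (adjusted p = 0.0322). Atp5l2, a copy of the gene on chromosome 11, differed by -0.56 (adjusted p = 0.00108) and -0.35 (adjusted p = 0.013), so Atp5l and its copies cannot be told apart here and are uncertain. The DKO call of Atp5l2 was lost without DKO replicate 2 (adjusted p = 0.0585).

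Atp5k, subunit e at the same contact, had 1 WT array above the background and no mutant array; its calls (limma adjusted p = 0.0271 and 0.0174) were lost in Rb KO when the first or second WT array, or replicate 2 or 3 of Rb KO, was left out (adjusted p up to 0.0888), and in DKO when WT replicate 1, or DKO replicate 1 or 2, was left out (adjusted p up to 0.0633). Atp5o, the oligomycin sensitivity protein of the peripheral stalk, differed by -0.17 (95% interval -0.39 to 0.05, adjusted p = 0.25) and -0.14 (-0.36 to 0.08, adjusted p = 0.324). Atp5g2, a ring subunit, was read at a probe set on chromosome 7, whereas its promoter lies on chromosome 15, so which copy was read is uncertain. It read 11.25, 11.38 and 10.94 in the WT arrays, 11.50, 11.22 and 11.41 in those of Rb KO, and 11.44, 11.37 and 11.45 in DKO. The groups overlapped and the differences were 0.19 (-0.06 to 0.44) and 0.23 (-0.02 to 0.48), the highest among structural subunits in both comparisons. A probe set on chromosome 15 differed by 0.15 and 0.22 in the fit of all probe sets.

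The catalytic head subunit Atp5b, on which ATP is formed, fell by 0.21 (SE 0.07, limma adjusted p = 0.0483) in Rb KO and by 0.23 (adjusted p = 0.0283) in DKO. Its partner Atp5a1 fell by 0.27 (adjusted p = 0.0317) in Rb KO and differed by -0.23 (adjusted p = 0.052) in DKO. Both head subunits were chosen after their values were seen.

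**Figure D3:**
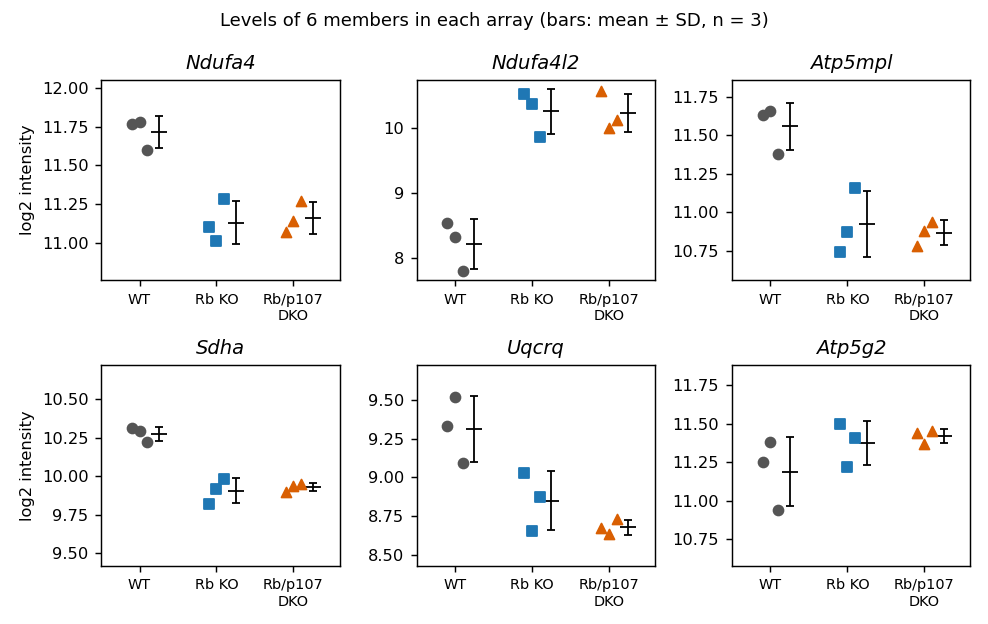
Log2 intensity (vertical axis, its range set per gene) of 6 members in each array of the 3 groups (horizontal axis); points are arrays and bars the mean ± SD of 3. The mutant points of Ndufa4, Atp5mpl, Sdha and Uqcrq lie below all WT points, those of Ndufa4l2 lie above (9.86 to 10.56 against 7.79 to 8.53), and those of Atp5g2 overlap WT.

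Of the 8 isoform genes 2 rose in Rb KO and 3 in DKO, and 1 fell, in DKO. Ndufa4l2, a relative of Ndufa4 known to be induced by hypoxia, read 8.53, 8.31 and 7.79 in the WT arrays, 10.52, 10.37 and 9.86 in those of Rb KO, and 10.56, 9.99 and 10.12 in DKO. The groups lay more than a log2 unit apart, and 2 WT arrays and all mutant arrays were above the background. Ndufa4l2 rose 4.11-fold in Rb KO (log2 fold change 2.04, SE 0.22, limma adjusted p = 9.76e-05) and 4.03-fold in DKO (2.01, adjusted p = 7.73e-05). The rise was called in all 9 fits that leave out an array, at 1.83 to 2.23 in Rb KO and 1.80 to 2.17 in DKO.

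The other 7 isoform genes were dim, save Cox7a2l, which helps join complexes III and IV. Cox7a2l had a log2 fold change of -0.16 (limma adjusted p = 0.196) and -0.19 (adjusted p = 0.126). Cox6b2, the testis form of subunit 6b, read 7.57, 7.46 and 7.46 in the WT arrays, 7.90, 7.74 and 7.66 in those of Rb KO, and 8.17, 8.09 and 8.01 in DKO, none above the background. The readings were called higher in both mutants (adjusted p = 0.0366 and 0.000381), and the Rb KO call was lost in 7 of the 9 fits that leave out an array, all save those leaving out the first WT or the third Rb KO array (adjusted p up to 0.112). Cox7b2, another testis form, was called higher in DKO (adjusted p = 0.0273) and Cox8b, a muscle form, lower in DKO (adjusted p = 0.0367) at readings below the background. The Cox7b2 call was lost when WT replicate 1 or 2, or DKO replicate 2 or 3, was left out (adjusted p up to 0.106), and the Cox8b call when WT replicate 1 or 2, or any DKO array, was left out (adjusted p up to 0.112). Cox6a2, Cox7a1 and Cox8c passed the test in neither mutant, at adjusted p of 0.665, 0.0619 and 0.316 for Rb KO and 0.992, 0.0812 and 0.631 for DKO.

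Among the 6 assembly factors, 2 fell in Rb KO and 4 in DKO, with medians of -0.21 and -0.27. Ndufaf3, which helps build complex I, read 9.37, 9.66 and 9.20 in WT and 8.84 to 9.20 in the mutants, and fell by 0.35 (SE 0.113, limma adjusted p = 0.0439) and 0.51 (adjusted p = 0.00624). Ndufaf7, a methyltransferase for complex I assembly, was at least 1.03-fold and 1.04-fold higher in WT (adjusted p = 0.0204 and 0.0325). Sdhaf1 and Sdhaf2, which mature complex II, were called lower in DKO (adjusted p = 0.0244 and 0.0333) at mutant readings not above the background. The assembly factors described here were chosen after their values were seen.

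No member passed the test between the mutants. In DKO against Rb KO limma called 0 of 77 members in either direction, against 2.5% of all genes, and 4 members had an unadjusted p under 0.05. The lowest adjusted p was 0.0796, for Cox6b2 (difference 0.32, 95% interval 0.14 to 0.51). The median difference was -0.02 and 48 members lay below 0. For Ndufa4 the interval of DKO minus Rb KO ran from -0.17 to 0.24, for Sdha from -0.13 to 0.18, and for Ndufa4l2 from -0.51 to 0.46. These intervals bound the differences and do not show that the mutants are alike.

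Among the WT arrays the subunit level moved with control separation. WT replicates 1 and 2, with the highest control separation (0.944 and 0.954), had the highest subunit levels (0.031 and 0.11), and WT replicate 3 (0.932) the lowest of its group (-0.14). The DKO arrays followed the same order: replicates 2, 1 and 3, at 0.927, 0.929 and 0.936, lay at -0.285, -0.273 and -0.205. The Rb KO arrays did not: replicate 1, with the lowest separation (0.928), lay at -0.196, and replicates 2 and 3, at 0.935 each, lay at -0.317 and -0.182. With each array's control separation added to the fit as a covariate, 7 members fell in Rb KO and 7 in DKO, and the medians were -0.11 and -0.13. The highest separations were all in WT arrays, and the mutant arrays lay at 0.927 to 0.936. This fit therefore cannot fully tell genotype from control separation, for the calls lost or for those kept. How many of all genes were called in that fit is not reported here, so these counts stand without a background share. Differences were then below 0 for 60 and 59 of the 77 members. The falls called in the reported fit and kept with the covariate were those of Atp5l, Atp5l2, Atp5mpl, Cox7b, Ndufa4, Ndufb2 and Sdha in Rb KO, and of Atp5mpl, Cox7b, Ndufa4, Ndufb11, Ndufb2, Ndufs5 and Uqcrq in DKO. Ndufa4l2 had a log2 fold change of 2.19 in each (limma adjusted p = 0.00114 and 0.0014).

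**Figure D4:**
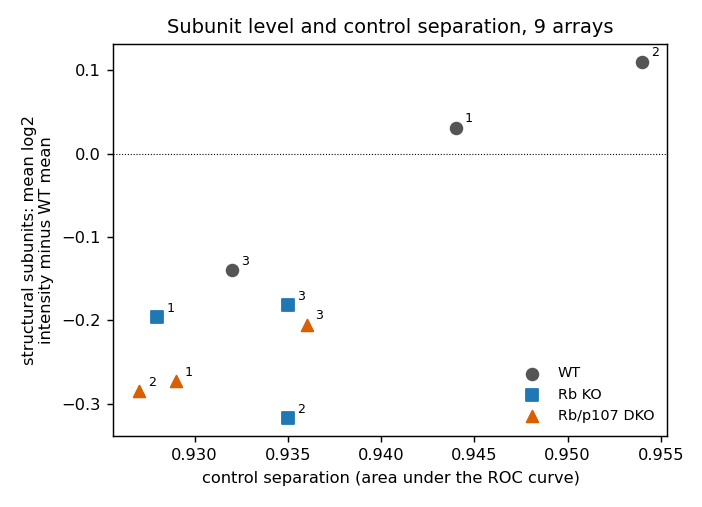
Mean log2 intensity of the 60 structural subunits minus the WT mean (vertical axis) against the control separation of the same array (horizontal axis, area under the ROC curve); each point is 1 of the 9 arrays, numbered by replicate. WT replicates 1 and 2 stand at the upper right, and WT replicate 3 (0.932, -0.14) lies above the mutant arrays of like separation (0.927 to 0.936, -0.182 to -0.317).

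Counts of falls also moved with single arrays. Counts over all genes in these fits are not reported here. In Rb KO they ranged from 10 without Rb KO replicate 2 to 39 without WT replicate 3, and 15 fell without WT replicate 1. In DKO they ranged from 18 without DKO replicate 2, the array with the low Xist and high lens readings, to 42 without WT replicate 3, with 20 without DKO replicate 1 and 23 without WT replicate 1. Falls called in all 9 of these fits numbered 10 in Rb KO (Atp5l, Atp5l2, Atp5mpl, Ndufa4, Ndufa9, Ndufb11, Ndufb2, Ndufs5, Sdha and Uqcrh) and 16 in DKO (Atp5mpl, Atp5sl, Ndufa4, Ndufa9, Ndufaf3, Ndufb11, Ndufb2, Ndufb8, Ndufs5, Ndufs8, Ndufv1, Sdha, Uqcr10, Uqcrc1, Uqcrh and Uqcrq).

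Markers of several cell types moved with genotype too. In bulk tissue, fewer cells of a type and less RNA per cell cannot be told apart. Of 19 rod markers, 18 fell in Rb KO and 19 in DKO; their mean level was 11.34 to 11.43 in WT, 9.55 to 10.33 in Rb KO and 9.48 to 10.26 in DKO, and 13 were above the background in all arrays. Of 11 cycling-cell markers, all rose in both mutants, from a mean level of 6.88 to 7.09 in WT, below the background, to 9.83 to 10.23 in Rb KO and 10.20 to 10.42 in DKO. Of 11 bipolar markers 10 and 9 fell, of 8 cone markers 6 and 8, of 9 endothelial markers 7 and 8, of 9 amacrine and ganglion cell markers 7 and 7, of 7 Muller glia markers 4 and 4, and of 7 pigment epithelium markers 6 and 6. In the amacrine and ganglion cell list and in the Muller glia list 1 marker rose in each mutant, and in the bipolar list 1 rose in Rb KO. Of 9 microglial markers 6 and 5 rose, of 7 lens markers 0 and 4 rose, and neither of the 2 erythrocyte markers was called. Many of these readings were dim. For every endothelial and pigment epithelium marker that fell, no array of that mutant was above the background. So too for 2 of the Muller glia falls in each mutant. Of the microglial rises, 4 in Rb KO and 3 in DKO had no array above it in either group. The part of these shifts in the subunit falls was not tested.

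Other genes of the pathway were counted from lists. Of all genes tested, 14.3% fell and 10.2% rose in Rb KO, and 17.1% fell and 12.2% rose in DKO. Of 24 measured assembly factors with other names, 7 fell in Rb KO and 10 in DKO and none rose, with medians of -0.08 and -0.21. Ttc19, a complex III assembly factor, fell by 0.62 (SE 0.080, limma adjusted p = 0.000298) and 0.73 (adjusted p = 7.95e-05), and Uqcc3, which stabilises newly made cytochrome b, fell by 0.76 (SE 0.116, adjusted p = 0.000894) and 0.84 (adjusted p = 0.000336).

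Of 20 genes of the tricarboxylic acid cycle and pyruvate dehydrogenase, 9 fell and 1 rose in each mutant, with medians of -0.26 and -0.25. Sucla2, a succinyl-CoA ligase subunit, fell by 0.64 and 0.56 (limma adjusted p = 0.000137 and 0.000244), and Pdha1, of pyruvate dehydrogenase, by 0.49 and 0.50 (adjusted p = 0.00585 and 0.00427). Idh2, the mitochondrial NADP-dependent isocitrate dehydrogenase, was the riser, by 0.79 and 0.88 (adjusted p = 0.000191 and 6.61e-05).

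Of 17 genes for carriers and quinone synthesis, 6 fell and 2 rose in each mutant, with a median of -0.15 in both. The share rising, 11.8% in each, lay near the 10.2% and 12.2% of all genes. The share falling was 35.3% in each, against 14.3% and 17.1%. Vdac1, the outer-membrane channel, fell by 0.37 and 0.32 (limma adjusted p = 0.00249 and 0.0048), and Slc25a5, an ADP/ATP carrier, by 0.38 and 0.26 (adjusted p = 0.00378 and 0.0219). Coq10a, a quinone-binding protein, fell by 0.35 and 0.48 (adjusted p = 0.0241 and 0.00358). Coq5, of ubiquinone synthesis, rose by 0.62 and 0.44 (adjusted p = 0.00586 and 0.028), and Atpif1, the inhibitor of ATP synthase hydrolysis, by 0.38 and 0.39 (adjusted p = 0.0143 and 0.00995). The mitochondrially encoded subunits were not analysed here.

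Of 17 biogenesis regulators and mitochondrial DNA genes, 5 rose and 3 fell in Rb KO and 6 rose and 4 fell in DKO, with medians of 0.13 and 0.02. The shares falling, 17.6% and 23.5%, lay near the 14.3% and 17.1% of all genes for a list this small. The shares rising were 29.4% and 35.3%, against 10.2% and 12.2% of all genes. Gabpa rose by 0.33 and 0.34 (limma adjusted p = 0.0122 and 0.0092), and Ssbp1, which coats mitochondrial DNA, by 0.33 and 0.30 (adjusted p = 0.00894 and 0.012). Esrrb, an estrogen-related receptor of rods, was above the background in all WT arrays (mean 9.03) and in no mutant array (7.20 and 7.41), and was at least 1.56-fold and 1.57-fold higher in WT (adjusted p = 4.76e-05 and 8.05e-05). Ppargc1b, a coactivator of these receptors, was likewise above it in WT alone (8.83 against 8.03 and 7.89), by at least 1.36-fold and 1.37-fold (adjusted p = 0.00346 and 0.00102). Polg2, of the mitochondrial DNA polymerase, was called lower (adjusted p = 0.000958 and 0.00581) and Pprc1 and Twnk higher (adjusted p = 0.0244 and 0.00564, and 0.0354 and 0.00727) at readings mostly or wholly not above the background.

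Of 61 mitochondrial ribosomal protein genes, 5 fell and 3 rose in Rb KO and 7 fell and 4 rose in DKO, with medians of -0.05 and -0.06, near those of all genes. The shares falling, 8.2% and 11.5%, lay below the 14.3% and 17.1% of all genes. The shares rising, 4.92% and 6.56%, lay below the 10.2% and 12.2% of all genes. Mrpl2 fell by 0.34 and 0.42 (limma adjusted p = 0.0305 and 0.00923), and Mrps15 rose by 0.28 and 0.24 (adjusted p = 0.0156 and 0.0268). Mrpl19 rose by 0.32 in Rb KO (adjusted p = 0.0146) and Mrps10 by 0.29 in DKO (adjusted p = 0.00774). Mrpl48 was called lower in both mutants (adjusted p = 0.00532 and 0.00193), Mrpl20 likewise (adjusted p = 0.0413 and 0.000608) and Mrpl17 higher in DKO (adjusted p = 0.00316), with no DKO array above the background in any of the 3.

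**Figure D5:**
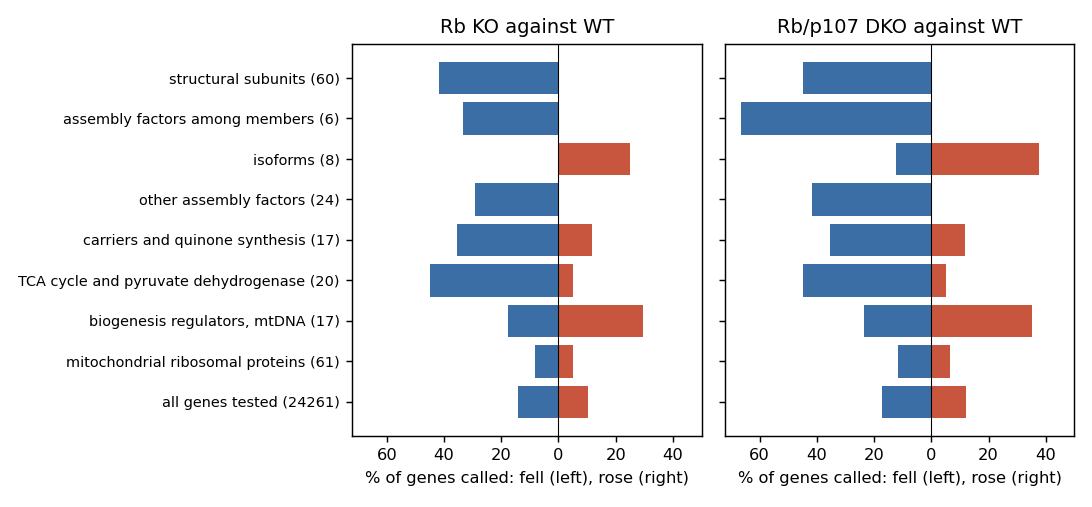
Percent of genes called by limma (horizontal axis, fell to the left, rose to the right) in each gene group (vertical axis, number of genes in parentheses), for Rb KO and DKO against WT. Structural subunits fell in 41.7% and 45.0% with no rise, against 14.3% and 17.1% of all genes tested.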

How the data were processed

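RNA of whole mouse retinas was read on 9 Affymetrix whole-transcript arrays. The authors deposited log2 intensities for 59649 probe sets, made by RMA, per the submitters' processing notes. The version of the program and the annotation build are not given in the sources used here. RMA makes the intensity distributions of arrays alike, so a change shared by most genes would not be seen. Array number, 3 a group, limits the precision.

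Gene names came from the platform annotation, and the 24646 transcript clusters with 1 symbol gave 24261 genes at their brightest probe set. Of 100 RefSeq protein-coding genes with the members' prefixes, 25 were not analysed here, some of them because their transcript cluster carries several symbols. A limma fit (version 3.58.1, R 4.3.3) of all 3 groups with 9 arrays and 6 residual degrees of freedom was adjusted by Benjamini-Hochberg over all genes, and a call is an adjusted p under 0.05. It was tested on simulated data. A probe set counted as above the background when it exceeded the 95th percentile of 5222 negative controls on that array. Where no array of the lower group did, "at least N-fold" sets the mean of the higher group against the higher of the lowest detectable signal and the reading itself, and no fold is given where this is under 1. Control separation compares 1324 positive controls with the negative ones. Promoters are RefSeq's for GRCm38.p6.

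The members and lists were chosen with earlier results of these data known. Lists covered assembly factors, carriers and quinone synthesis, mitochondrially encoded subunits, the tricarboxylic acid cycle, biogenesis, mitochondrial ribosomal proteins, and markers of rods, cones, bipolar, amacrine and ganglion cells, Muller glia, cycling cells, microglia, pigment epithelium, lens, endothelium and erythrocytes. Named genes were all measured complex II subunits; in each other complex the 3 subunits with the lowest F-test p over both comparisons with WT; the 5 largest called falls and rises in each comparison that were above background in a group; all listed isoforms; Ndufa4, Ndufab1, Atp5o and Uqcrc1; and up to 2 rising and 2 falling genes of each other list. Others are said to be chosen after seeing values. Alternatives were other normalizations, a filter on dim genes, the mean of probe sets, 2 groups only, trended and robust variance, a replicate block, control separation as a covariate, structural subunits only and leaving out each array.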

Additional observations from a re-analysis of the deposited data

Results flagged for a closer look

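Atp5j, coupling factor 6 of the ATP synthase peripheral stalk, was picked out because its Rb KO arrays all lay at or above the WT mean and its DKO arrays all below it. It read 8.35, 8.34 and 8.33 in the WT arrays, 8.36, 8.34 and 8.37 in those of Rb KO, and 8.30, 8.24 and 8.27 in DKO. These readings lie at the background, with 2 WT arrays, 2 Rb KO arrays and no DKO array above it, so no fold is given. The difference in reading, DKO minus Rb KO, was -0.09 (SE 0.063, limma adjusted p = 0.648) and did not pass the test.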

How the results depend on the processing

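Medians and counts were recomputed under 19 other settings. The medians of both mutants against WT stayed below 0 under each. Among named genes, no difference called in the reported or the other fit changed sign. The median of DKO against Rb KO lay between -0.06 and 0.00, and its direction was not judged. Counts have no direction to change. Counts over all genes under these settings are not reported here, so the counts of members have no background share beside them. With control separation as a covariate the falls numbered 7 in each mutant, the rises in Rb KO 1, and the medians were -0.11 in Rb KO and -0.13 in DKO; the cause was not tested. With 2 groups only, 17 members fell and 1 rose in Rb KO, with fewer arrays in the fit. Among genes above the negative controls in 3 arrays 1 member rose in each mutant, and among structural subunits only 0 rose in each, since dim genes or isoforms were then left out. Leaving out 1 array at a time, falls ranged from 10 to 39 in Rb KO and from 18 to 42 in DKO, rises from 1 to 2 and from 2 to 3, and medians from -0.29 to -0.16 and from -0.29 to -0.20. With the replicate block 22 members fell in Rb KO and 29 in DKO. The replicate numbers were not taken to pair the arrays: same-numbered pairs correlated at -0.162 to 0.145, 2 of 9 pairs over 0.1, and 2 of 9 arrays correlated best with their own number. Setting equal medians of the genes above the negative controls in all arrays, chosen after seeing the data, gave 27 and 31 falls. In DKO against Rb KO 0 members were called under each of these settings. Signal over background limits the 10 members above background in no array.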
